A study of Mus musculus with 64 samples.

Results

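The interferon-stimulated genes described here are a list of 36 genes that cells switch on when interferon reaches them, read in the proximal colon of mice of 32 inbred strains. Of the 36, 35 have a probeset on the Clariom S array, out of 19503 genes measured, and Ifi44 was not analysed here. The genes were grouped from general knowledge into 27 type I targets and 8 type II targets (Irf1, Irf8, Gbp2, Gbp3, Gbp7, Irgm1, Igtp and Iigp1), although many of them answer to both kinds of interferon. There were 30 BXD strains, bred from crosses of C57BL/6J with DBA/2J, and both of these parents. All mice were males killed at 29 weeks of age, after a fast and 4 h of refeeding. One cohort of each strain stayed on a chow diet (CD, by energy 24% protein, which 1 label field gives as 4%, 58% carbohydrate and 18% fat). The other cohort was moved at 8 weeks to a high-fat diet (HFD, 60.3% fat, 21.4% carbohydrate and 18.3% protein) and stayed on it for 21 weeks. Each of the 64 arrays (32 CD, 32 HFD) held the pooled RNA of about 5 mice of 1 strain and diet, so P values rest on the variation among strains, and that among single mice is unknown.

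Levels are log2 intensities as deposited, with array medians from 6.60 to 6.75 under CD and from 6.65 to 6.76 under HFD. Epithelial markers were high, with array means of 9 genes from 16.56 to 17.52 under CD and from 16.58 to 17.32 under HFD, and Muc2, the mucin of goblet cells, was the strongest of them. Means of 8 T cell markers lay between 5.44 and 6.42 and those of 9 myeloid markers between 7.78 and 9.25 over the 64 arrays. The array of BXD81 under CD and that of BXD49 under HFD correlated least with the rest of their diet. Probe sequences were not used here, so signal from near-identical copies (the Oas1, Ifit3, Gbp and immunity-related GTPase genes) cannot be told apart. The 100 genes with the highest correlation of CD with HFD arrays were picked under the same strain labels, which favours a match of these labels. Over them, the arrays of a strain label were each other's best match in 28 of 32 strains. The exceptions were BXD89, BXD90, C57BL/6J and DBA/2J: the CD array labelled DBA/2J was most like the HFD array labelled C57BL/6J (r = 0.78) and correlated by -0.12 with its own HFD array. Results were therefore also computed without these 4 strains and BXD87, whose arrays were the best match of the BXD89 CD array and the DBA/2J HFD array.

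Interferons are signalling proteins, and cells release those of type I and type III on sensing viral or microbial nucleic acid. Type I and type III interferons act through a complex with STAT2 and IRF9 that binds the interferon-stimulated response element (ISRE), while interferon gamma, the type II interferon, acts at gamma-activated sites (GAS) and through IRF1. Irf7 is itself induced by interferon and in turn drives interferon genes, and gut epithelium keeps many of these genes at a low resting level that depends on the microbiota.

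The response element was looked for in the promoters of the members. In RefSeq (GRCm38.p6), 26 of the 35 genes had a promoter entry, and the 250 bases before each start site were searched on both strands for the ISRE core (GAAA, any 2 bases and GAAA, which reads TTTC, any 2 bases and TTTC on the other strand) and for the GAS motif TTCNNNGAA, which reads the same on both strands. The ISRE core was found in 14 of the 26 genes (53.8%, 9 of 19 type I and 5 of 7 type II targets) and in 3.46% of 27025 genes. The GAS motif was found in 7 of the 26 (26.9%, 3 of 19 type I and 4 of 7 type II targets) and in 8.13% of all genes. The windows of Irf7, Oas1a and Irgm1 are shown because these genes fell on HFD, that of Isg15 for its run of 3 overlapping matches, that of Ifit1 for matches on the other strand, and that of Igtp as an interferon gamma target with both motifs. Capitals mark ISRE core matches, overlapping ones as 1 run. The windows lie at chr7:141266425-141266674 (minus strand) for Irf7, chr5:120907526-120907775 (minus) for Oas1a, chr11:48871421-48871670 (minus) for Irgm1, chr4:156200819-156201068 (minus) for Isg15, chr19:34640639-34640888 (plus) for Ifit1 and chr11:58199306-58199555 (plus) for Igtp.
Irf7: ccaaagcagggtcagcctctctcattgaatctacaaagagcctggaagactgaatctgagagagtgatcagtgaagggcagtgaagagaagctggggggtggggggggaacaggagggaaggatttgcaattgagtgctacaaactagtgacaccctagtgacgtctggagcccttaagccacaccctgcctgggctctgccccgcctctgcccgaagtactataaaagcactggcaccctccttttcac
Oas1a: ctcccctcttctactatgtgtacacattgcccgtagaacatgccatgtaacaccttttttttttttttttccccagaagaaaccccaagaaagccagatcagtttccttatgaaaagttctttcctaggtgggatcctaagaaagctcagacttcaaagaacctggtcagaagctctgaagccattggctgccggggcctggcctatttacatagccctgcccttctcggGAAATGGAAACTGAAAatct
Irgm1: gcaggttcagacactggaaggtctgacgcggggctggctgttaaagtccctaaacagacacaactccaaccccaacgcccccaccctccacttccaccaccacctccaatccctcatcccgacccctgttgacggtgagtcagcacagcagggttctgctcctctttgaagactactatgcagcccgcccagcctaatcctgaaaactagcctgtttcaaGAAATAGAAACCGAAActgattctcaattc
Isg15: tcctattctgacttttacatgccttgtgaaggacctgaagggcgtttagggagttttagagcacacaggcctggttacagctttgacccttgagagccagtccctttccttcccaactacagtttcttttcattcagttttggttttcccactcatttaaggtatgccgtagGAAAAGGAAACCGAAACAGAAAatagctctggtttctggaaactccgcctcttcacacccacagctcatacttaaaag
Ifit1: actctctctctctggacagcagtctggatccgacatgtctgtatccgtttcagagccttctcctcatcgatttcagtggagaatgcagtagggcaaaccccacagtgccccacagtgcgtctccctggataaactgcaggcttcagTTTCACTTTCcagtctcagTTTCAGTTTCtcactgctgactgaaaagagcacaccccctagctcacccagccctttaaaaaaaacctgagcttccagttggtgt
Igtp: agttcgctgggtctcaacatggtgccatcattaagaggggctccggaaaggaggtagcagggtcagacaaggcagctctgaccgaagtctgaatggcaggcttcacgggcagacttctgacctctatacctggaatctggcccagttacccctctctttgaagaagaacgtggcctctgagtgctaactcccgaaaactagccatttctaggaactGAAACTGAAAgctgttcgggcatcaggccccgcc
The matches of Oas1a and Irgm1 lie close to the start, beginning 20 and 14 bases before it in Oas1a and 30 and 24 bases before it in Irgm1, whereas those of Ifit1 begin 104 and 85 bases before it. A match is a string of letters and not a measured site, and the Irf7 window holds no match in these spelled letters.

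Irf7, the transcription factor that amplifies the interferon response, fell on HFD in most strains. Under CD it ranged from 8.00 (DBA/2J) over a median of 10.67 to 11.71 (BXD8), and under HFD from 6.81 (BXD34) over 8.97 to 13.31 (BXD8). The diets overlapped, but only 1 HFD array, that of BXD8, lay above the CD median, and 4 CD arrays lay below the HFD median. The mean fell from 10.47 ± 0.96 to 9.10 ± 1.15 (SD, n = 32 each), a log2 fold change of -1.37 (standard error 0.25, limma adjusted P = 0.000606), with 29 of 32 strains lower. This fall was known when the list was drawn up. In bulk tissue, fewer cells of a type and less RNA per cell cannot be told apart.

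The size of the fall differed widely between strains. Irf7 was lower by more than 1 in 23 strains and by more than 2 in 8, and the largest falls were -3.55 in BXD75, -2.87 in BXD51 and -2.78 in BXD81. It was higher on HFD in DBA/2J (0.46), BXD8 (1.60) and BXD90 (1.64). DBA/2J and BXD90 are strains whose arrays do not match each other well, while the arrays of BXD8 were each other's best match over the genes picked by label (r = 0.84). Among the 27 strains without a doubted label, Irf7 was lower in 26, with a median difference of -1.64, and BXD8 was the exception.

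**Figure D1:**
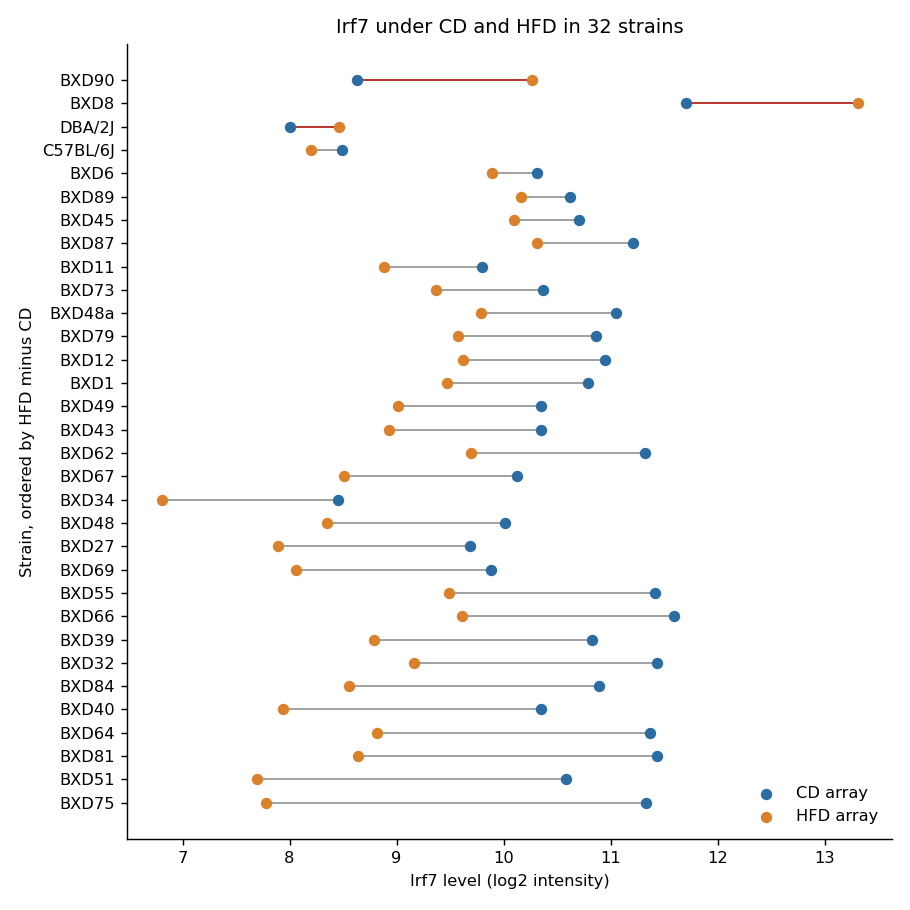
Irf7 level (x axis, log2 intensity) of the CD array (blue) and the HFD array (orange) of each of 32 strains (y axis), ordered by the difference, with a red line where HFD is the higher. The HFD array lies lower in 29 strains, and BXD8 lies apart at 13.31 under HFD.

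Under CD the Irf7 levels had a gap: 4 arrays lay from 8.00 to 8.63 (DBA/2J, BXD34, C57BL/6J and BXD90) and the other 28 at 9.69 or above. Of these 4 arrays, 3 carry a doubted label, and the fourth, BXD34, was also lowest under HFD. The rest of the list was not low to that degree in them. In the BXD34 array 19 of the other 34 members lay below their CD median, with a median deviation of -0.05, and in the C57BL/6J array 28 of 34 did, with a median deviation of -0.28. In all 4 arrays about as many genes of the whole array lay below as above their CD median (48.2% to 49.9% below).

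**Figure D2:**
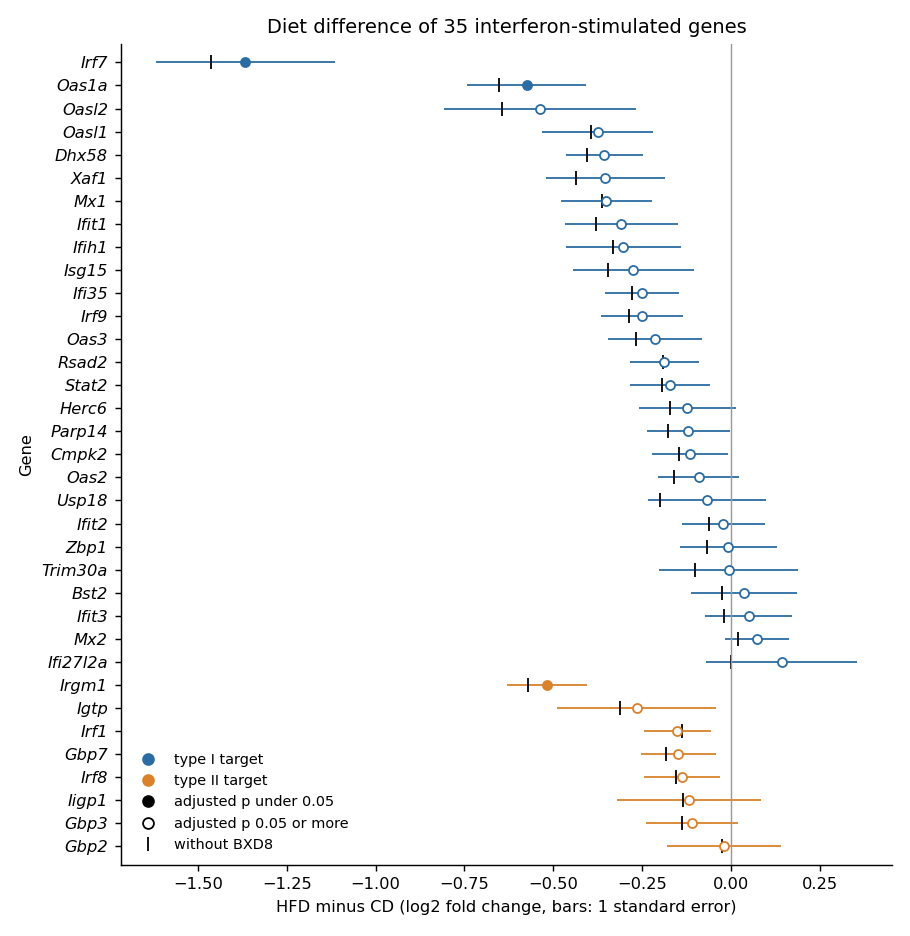
HFD minus CD (x axis, log2 fold change, bars 1 standard error) of 35 genes (y axis), type I targets in blue and type II targets in orange, filled where the limma adjusted P was under 0.05 and with a tick at the value without BXD8. Irf7 stands apart at -1.37, 31 of 35 points lie below 0, and 3 are filled.

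Beside Irf7, 2 more members passed an adjusted P of 0.05 as lower on HFD, 0 as higher, and 32 did not pass. Over all genes, 1.44% passed as lower and 0.743% as higher. Oas1a, an oligoadenylate synthetase whose product activates the RNA-cutting enzyme RNase L, ranged from 6.40 (BXD87) over 7.62 to 8.77 (BXD55) under CD and from 5.77 (DBA/2J) over 6.96 to 10.25 (BXD8) under HFD. It was lower on HFD in 26 of 32 strains, by -0.57 (standard error 0.17, adjusted P = 0.0483). The ranges overlapped, with 4 HFD arrays above the CD median. This call was at the threshold: of the 32 fits that left out 1 strain each, 7 kept it (those without BXD8, BXD32, BXD48a, BXD87, BXD89, BXD90 or C57BL/6J), and the highest adjusted P was 0.0856.

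Irgm1, an immunity-related GTPase that controls the others of its family on membranes, also passed as lower. Its level ranged from 9.27 (BXD27) over 10.23 to 11.12 (BXD62) under CD and from 8.95 (C57BL/6J) over 9.72 to 11.42 (BXD8) under HFD. It was lower in 27 of 32 strains, by -0.52 (standard error 0.11, adjusted P = 0.00316), and kept an adjusted P of at most 0.00884 whichever strain was left out. As with Oas1a, 4 HFD arrays lay above the CD median. The other immunity-related and guanylate-binding GTPases of the list did not pass, with differences from -0.27 (Igtp) to -0.02 (Gbp2).

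With strain as a replicate block, 5 members passed as lower, against 2.13% of all genes, and 0 as higher, against 1.39%. The 5 were the 3 above, Dhx58 and Oasl1. Dhx58, the receptor LGP2 that regulates sensing of viral RNA, ranged from 5.62 (BXD48) over 6.47 to 7.35 (BXD39) under CD and from 5.30 (BXD43) over 5.95 to 7.86 (BXD8) under HFD, with 23 of 32 strains lower. Its difference was -0.36 (adjusted P = 0.0578 without and 0.0251 with the block). Oasl1, a relative of the oligoadenylate synthetases that in mice restrains the translation of Irf7, ranged from 3.74 (BXD67) over 4.33 to 6.43 (BXD8) under CD and from 3.02 (BXD84) over 3.98 to 6.61 (BXD8) under HFD. It differed by -0.37 (adjusted P = 0.238 without and 0.0416 with the block), with 24 of 32 strains lower, at a level below the lower quartile of all gene values (5.18).

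BXD8 raised the HFD mean of many members. Without its 2 arrays, 4 members passed as lower (Dhx58 in addition, adjusted P = 0.00854), against 1.12% of all genes, and 0 as higher, against 0.631%. With the block as well, 9 passed as lower, against 1.87% of all genes, and 0 as higher, against 1.14%. The 9 were Irf7, Irf9, Dhx58, Oas1a, Oasl1, Oasl2, Ifi35, Xaf1 and Irgm1. Irf9, the DNA-binding part of the interferon-activated complex, differed by -0.29 without BXD8 (adjusted P = 0.164, and 0.0253 with the block) and by -0.25 with it. Its partner Stat2 differed by -0.19 without BXD8, with adjusted P = 0.458 and 0.290. These fits without BXD8 were chosen after its values had been seen.

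The remaining regulators and sensors did not pass. Irf1, the factor that carries much of the interferon gamma response, had medians of 12.42 under CD and 12.40 under HFD and a difference of -0.15 (adjusted P = 0.515). Irf8, a factor of myeloid cells, differed by -0.14 (adjusted P = 0.629). Ifih1, the double-stranded RNA sensor MDA5, was lower in 25 of 32 strains, by -0.30, and did not pass (adjusted P = 0.412, and 0.0849 with the block). Zbp1, a sensor of Z-form nucleic acid, differed by -0.01, with 16 strains lower and 16 higher.

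Apart from Oas1a, and Oasl1 with the block only, no antiviral effector among the members passed with all strains in the fit. Oasl2 differed by -0.54 (standard error 0.27, adjusted P = 0.369), Mx1 by -0.35 (adjusted P = 0.149), Ifit1 by -0.31 (adjusted P = 0.390) and Isg15, the ubiquitin-like protein attached to others after interferon, by -0.27 (adjusted P = 0.503). Ifit2 differed by -0.02, Trim30a by -0.01 and Bst2, the tetherin that holds budding virus at the membrane, by 0.04. Ifit3 (0.05), Mx2 (0.07) and Ifi27l2a (0.14) were the other members with a mean above 0. Without BXD8, Bst2 and Ifit3 lay below 0 (-0.02 each), Mx2 stood at 0.02 and Ifi27l2a was close to 0.

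As a list, the members leaned to lower values on HFD. A log2 fold change below 0 was found in 31 of 35 (88.6%), against 49.3% of all genes, with a median of -0.15 against a value close to 0 for all genes. The median was -0.19 for the 27 type I and -0.14 for the 8 type II targets, and both classes were lower in the majority of strains: the mean difference was below 0 in 26 of 32 strains for type I and in 20 of 32 for type II, against 16 for all genes. At an unadjusted P under 0.05 there were 9 members, all lower, and 13.6% of all genes in either direction. The genes vary together across arrays, so these counts are not independent, and the difference between the classes was not tested.

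Genes of the pathway outside the list were read from 3 further lists. Of 29 signalling genes, 2 passed as lower and 0 as higher: Mavs, the adaptor on mitochondria through which RNA sensors signal (-0.37, adjusted P = 0.0234, 26 of 32 strains lower), and Irf3, the factor it activates (-0.36, adjusted P = 0.0443, 23 of 32). Irf3 lost its call in 20 of 32 fits that left out 1 strain. Of 25 further type I targets, 2 passed as lower, Lgals3bp, a secreted glycoprotein (-0.59, adjusted P = 0.0115), and Eif2ak2, the kinase PKR that stops translation on viral RNA (-0.35, adjusted P = 0.0321). Of 18 further type II targets, among them antigen presentation genes and chemokines, 0 passed in limma. Over all genes, 1.44% passed as lower and 0.743% as higher. An unadjusted P under 0.05 was found for 5 signalling genes, 7 further type I and 2 further type II targets, against 13.6% of all genes. The median change was 0.02 for signalling genes, -0.09 for further type I and -0.02 for further type II targets.

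No cell type marker list had a gene past the threshold without the block (limma, 0 of 54 genes). The 4 smooth muscle markers all lay higher on HFD (median 0.21), as did all 5 B cell markers (0.30), and the 9 epithelial markers all lay lower (median -0.06). The epithelial differences ran from -0.004 (Muc2) to -0.77 (Car4). Muc2 hardly varied, with a mean of 19.92 and an SD of 0.01 in both diets. Of 9 small intestine markers 8 lay higher (median 0.46), and their array mean reached 12.82 under CD and 15.17 under HFD against medians of 8.19 and 8.35. With the block, Car4, a carbonic anhydrase of colon epithelium, passed as lower (-0.77, adjusted P = 0.0207) and Alpi, an intestinal alkaline phosphatase, as higher (0.46, adjusted P = 0.0376). The part of tissue makeup in the fall of Irf7 was not tested.

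**Figure D3:**
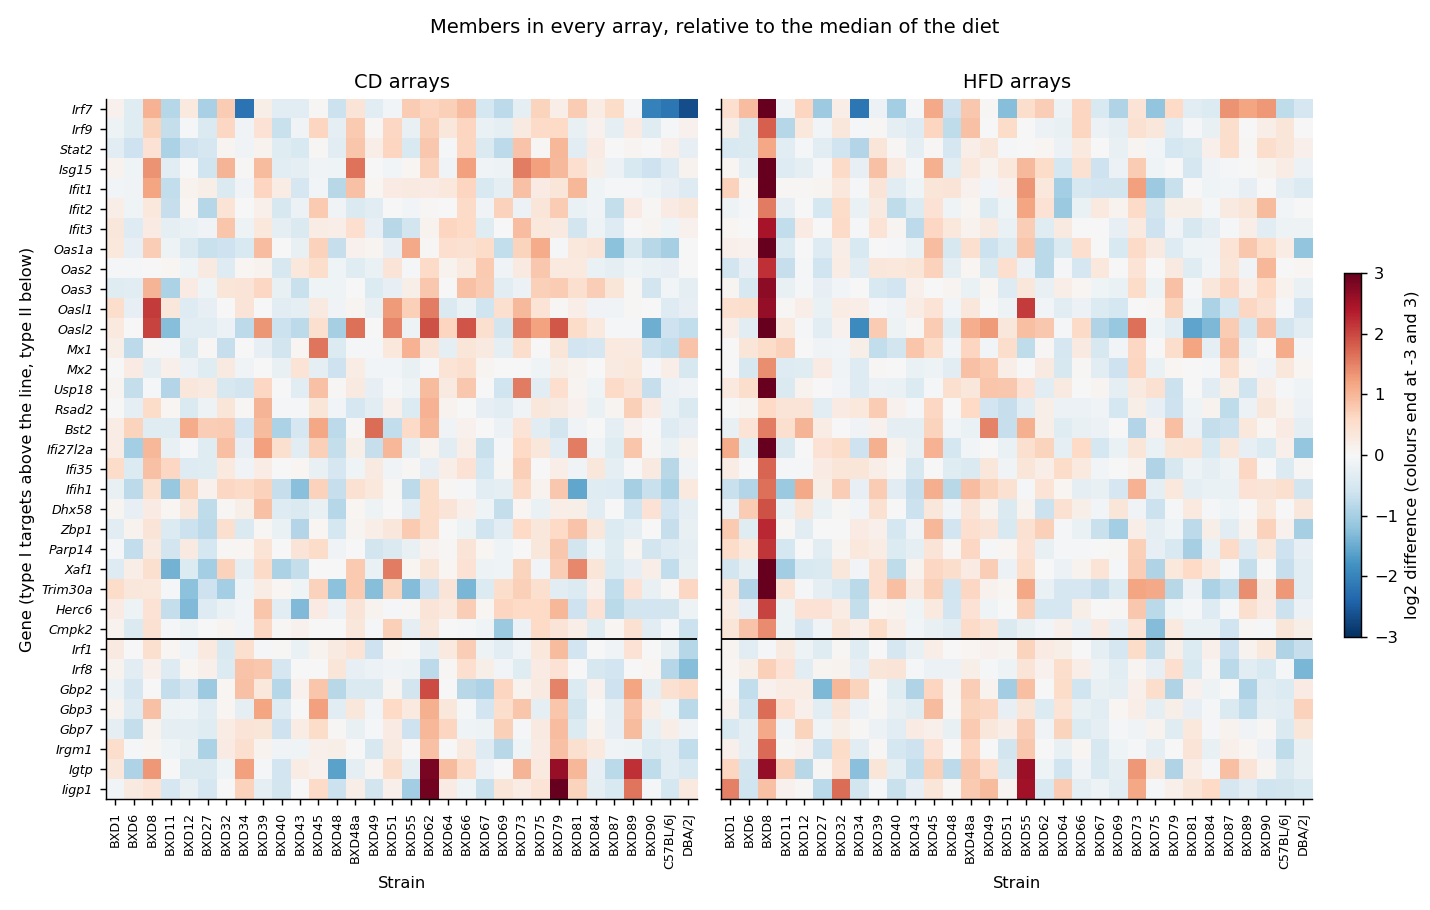
Each of 35 genes (rows, type I targets above the line) in each CD array (left) and HFD array (right) as the log2 difference from the median of its diet, with colours ending at -3 and 3. The HFD array of BXD8 is the one column that is red over most rows, and Igtp and Iigp1 are red in BXD62, BXD79 and BXD89 under CD and in BXD55 under HFD.

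The HFD array of BXD8 stood apart from the other 31. It held the highest level of its diet for 30 of 35 members, where it was the highest for 4.32% of all genes, and it lay more than 3 scaled median absolute deviations above the diet median for 27 of 35, against 1.05% of all genes. The 5 members that were highest in another strain were Mx1, Rsad2, Irf1, Gbp2 and Iigp1. Its correlation with the other HFD arrays over all genes (median r = 0.974) was within the range of the diet. With 1 array of each strain and diet there is no replicate of it, and the mice of the pool cannot be told apart.

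Ifi27l2a, a small protein induced by interferon, showed the widest gap. Its CD levels ranged from 3.67 (BXD6) over a median of 4.69 to 6.23 (BXD81). It reached 10.24 in BXD8 on HFD, where the other 31 HFD arrays ranged from 3.55 to 5.84, and stood at 5.70 in BXD8 on CD. Oasl2, the member with the widest range over the 64 arrays (7.16), reached 13.73 against 6.57 (BXD34) to 10.15 (BXD73) in the others. Under CD, Oasl2 ranged from 7.46 (BXD90) over 8.93 to 10.96, again in BXD8. Of the 35 members, 9 lay above every other HFD array by more than 2, the others being Irf7, Oas1a, Xaf1 and the 4 that follow. Usp18, the protease that removes Isg15 and dampens signalling of the type I receptor, lay 3.30 above the highest of the other HFD arrays (5.20 to 6.69) and stood at 5.97 under CD. Isg15 reached 8.66 against 4.47 to 6.15, Ifit1 10.06 against 5.59 to 7.99 and Trim30a 8.33 against 3.84 to 6.19.

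Type I targets deviated further than type II targets in this array. Their median deviation from the HFD median was 2.18, from 0.54 (Mx1) to 5.52 (Ifi27l2a), and 23 of 27 lay beyond 3 scaled deviations. For the 8 type II targets the median was 1.02, from -0.03 (Irf1) to 2.65 (Igtp), and 4 lay beyond that limit: Gbp3, Gbp7, Irgm1 and Igtp. Gbp2, a guanylate-binding protein, was at 7.88 against a median of 7.76, and Iigp1, an immunity-related GTPase, at 6.71 against 5.82. A single array allows no test of this difference.

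The further lists followed the same order in that array. The median deviation was 1.13 for 25 further type I targets, of which 21 were the highest of the diet, led by Rtp4 (3.64), Phf11b (3.23) and Ifit1bl1 (3.13). It was 0.39 for 18 further type II targets, where Irgm2 (3.05), Psmb8 (2.41) and Tap1 (1.72) were high and the MHC class II gene H2-Aa low (-1.86). Tap1 lay just above the highest other HFD array (10.37 against 10.34). H2-Aa was also low in the BXD8 CD array (12.35 against a CD median of 14.06). Irgm2 (8.01 against 7.09), Psmb8 (10.07 against 9.27) and Tap1 (9.67 against 8.84) lay above their CD medians there. The median deviation in the HFD array was -0.01 for 29 signalling genes. Among these, Ifng, interferon gamma itself, was at 5.17, just below every other HFD array (5.20 to 7.49) and near the lower quartile of all gene values (5.18). Ifnb1, interferon beta, was at 5.82, within the range of the other HFD arrays (4.60 to 5.92). The sensor gene Ddx58 had the highest deviation of the signalling genes (0.98).

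Of the 20 genes with the largest positive deviation in this array, 9 were members and 5 came from the further lists. The remaining genes, chosen after their values were seen, included Slfn4 (4.83), Apol9a (3.16), Phf11d (3.00) and Ifi27l2b (2.72), and the heat shock gene Hspa1b (3.10). In the BXD8 CD array Hspa1b deviated further (3.99), while Slfn4, Apol9a, Phf11d and Ifi27l2b deviated by 0.77, 0.49, 0.13 and 0.75. The 40 highest genes of the HFD array also held Arntl (2.13) and the 20 lowest Dbp (-3.63), Per3 (-2.46) and Nr1d2 (-2.45). These take part in the circadian clock. In the BXD8 CD array their deviations had the same sign (1.13, -0.63, -1.44 and -0.69). No list of clock genes was tested. In the HFD array of BXD8, the mean of the smooth muscle markers was the lowest of the diet (14.63, against a median of 15.68). So was that of the plasmacytoid dendritic cell markers (8.37 against 8.89), a list whose genes ran from 4.88 (Ccr9) to 18.87 (Klk1) in mean HFD level. Its largest drop was in Tcf4 (-1.18). The array mean of the 8 T cell markers was the highest (6.42 against 5.90), although only 3 of the 8 were the highest of the diet and 2 lay below its median. The part of these differences in the interferon values was not tested.

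Under CD, BXD8 was also at the upper end for several members, but not apart. Its CD array was the highest for 6 of 35 (2.84% of all genes): Irf7, Ifit1, Oas3, Oasl1, Oasl2 and Ifi35. Isg15 and Oasl1 lay beyond 3 scaled deviations (0.467% of all genes). The mean deviation of type I targets was 0.59, the highest of the 32 CD arrays, followed by BXD73 (0.52) and BXD39 (0.51). Under HFD it was 2.51, followed by BXD45 (0.51) and BXD73 (0.49).

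**Figure D4:**
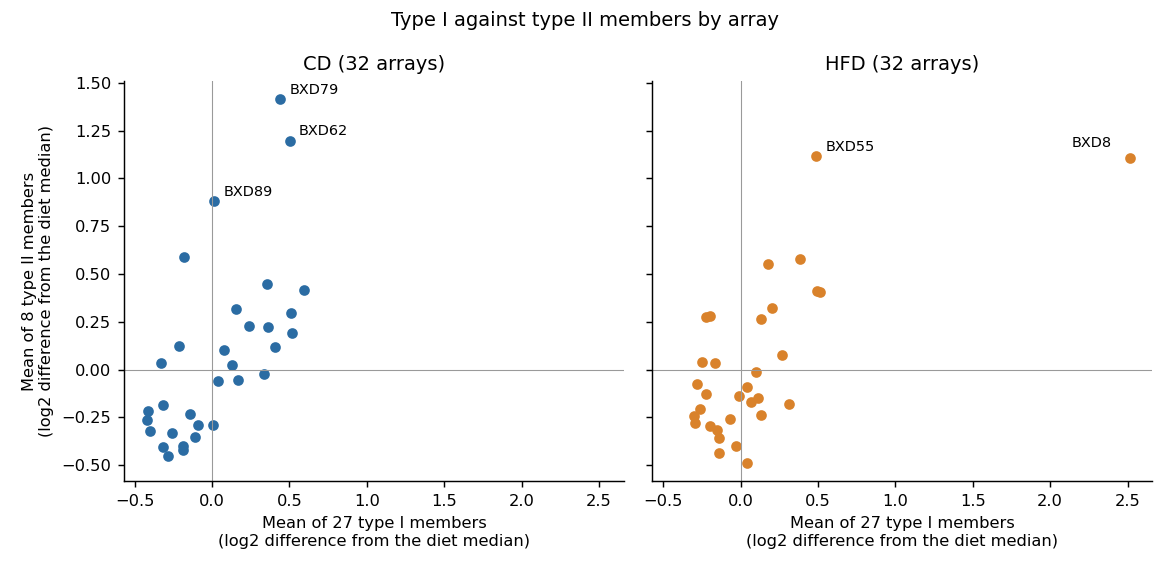
Mean deviation from the diet median (log2) of 27 type I members (x axis) and 8 type II members (y axis), 1 point an array, CD left and HFD right. BXD8 lies alone at 2.51 for type I under HFD, while BXD79, BXD62 and BXD89 under CD and BXD55 under HFD are higher for type II than for type I.

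The type II targets singled out other arrays. Their mean deviation was highest in BXD79 (1.41), BXD62 (1.20) and BXD89 (0.88) under CD, where the type I means were 0.44, 0.50 and 0.01. Under HFD it was highest in BXD55 (1.12) and BXD8 (1.11), where the type I means were 0.49 and 2.51. In the BXD55 HFD array, 4 of the 35 members lay beyond 3 scaled deviations (0.943% of all genes). They were of both classes and included the type I target Oasl1 (6.08, against an HFD median of 3.98).

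Igtp and Iigp1, a regulatory and an effector GTPase of the family that acts on the vacuoles of intracellular parasites, were the most variable of them. Igtp ranged from 3.78 (BXD48) over 5.38 to 8.23 (BXD62) under CD and from 3.96 (BXD34) over 5.21 to 7.86 (BXD8) under HFD. Iigp1 ranged from 4.88 (BXD55) over 5.93 to 9.13 (BXD79) under CD and from 5.00 (BXD27) over 5.82 to 8.33 (BXD55) under HFD. The high strains of CD were not those of HFD: Iigp1 was lower on HFD by -3.46 in BXD62 and by -3.17 in BXD79, and higher by 3.45 in BXD55. For both genes the mean difference between the diets was small beside that spread (Igtp -0.27, adjusted P = 0.667, and Iigp1 -0.12, adjusted P = 0.870).

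Covariation with Irf7 was next read across strains within each diet. Of the 34 other members, 0 passed an adjusted P of 0.05 in a permutation test over all genes, under either diet, and 0 of 19502 genes did (0%). At an unadjusted P under 0.05 there were 13 members under CD (7.02% of all genes) and 29 under HFD (6.77%). Because 100000 resamples bound the adjusted P of a single gene at 0.195, genes with a first P of at most 0.001 were run again with 10000000 resamples, and again 0 passed. The median r of the members was 0.30 under CD and 0.60 under HFD, against values close to 0 over all genes.

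Much of the HFD value rested on BXD8. Without it the median r was 0.27 under CD and 0.27 under HFD, and all 34 members stayed above 0 under HFD. There, 11 had an unadjusted P under 0.05 (6.58% of all genes), as had 13 under CD (6.91%). Without the 4 CD arrays of low Irf7, the CD median was 0.32 and 13 members had such a P (4.65% of all genes). Type I targets had a median r of 0.31 under CD and 0.61 under HFD, or 0.28 in both diets without BXD8. Type II targets had 0.22 and 0.38, or 0.20 and 0.16 without BXD8. The difference between the classes was not tested.

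By Pearson r over all strains, Oasl2 was the member closest to Irf7 in both diets, an order that other measures changed. Under HFD rho was higher for Irgm1 (0.65), Oas1a (0.59) and Ifit2 (0.58), and without the 4 low-Irf7 arrays of CD r was higher for Oas3 (0.67, against 0.58 for Oasl2). The mean of Oas3 (4.78 under CD, 4.57 under HFD) lay below the lower quartile of all gene values (5.18). Under CD the r of Oasl2 was 0.65 and rho 0.68 (permutation P = 7.00e-05, adjusted P = 0.236), and r was 0.64 without the 2 arrays farthest from the median of Irf7, BXD34 and DBA/2J. Under HFD r was 0.78 and rho 0.56 (adjusted P = 0.130), with 0.57 without BXD8 and 0.46 without BXD34 and BXD8, the farthest 2 of that diet. Isg15 (r = 0.52, rho = 0.63) and Ifit1 (0.51 and 0.63) came next under CD, and Oas1a (0.77 and 0.59) and Irgm1 (0.75 and 0.65) under HFD. Without BXD8, Irgm1 stood at 0.56 and Oas1a at 0.53 under HFD. Irgm1, a type II target by its list, was therefore among the closest to Irf7.

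At the other end were Trim30a (r = -0.18), Gbp2 (-0.07) and Gbp7 (0.07) under CD, and Gbp2 (0.06), Mx1 (0.19) and Irf8 (0.25) under HFD. Trim30a ranged from 3.73 (BXD66) over 5.11 to 5.89 (BXD48a) under CD, and Gbp2 from 6.63 (BXD27) over 7.72 to 9.67 (BXD62). The mean of Trim30a under CD (4.98) lay below the lower quartile of all gene values (5.18). Usp18 showed the largest dependence on 1 array, with r = 0.60 under HFD and 0.02 without BXD8. Mx1, a dynamin-like GTPase against influenza virus whose gene is disrupted in most laboratory mice, had an r of 0.10 under CD. Its level ranged from 6.73 (BXD6) over 7.50 to 9.12 (BXD45) under CD and from 6.25 (BXD55) over 7.01 to 8.19 (BXD81) under HFD.

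**Figure D5:**
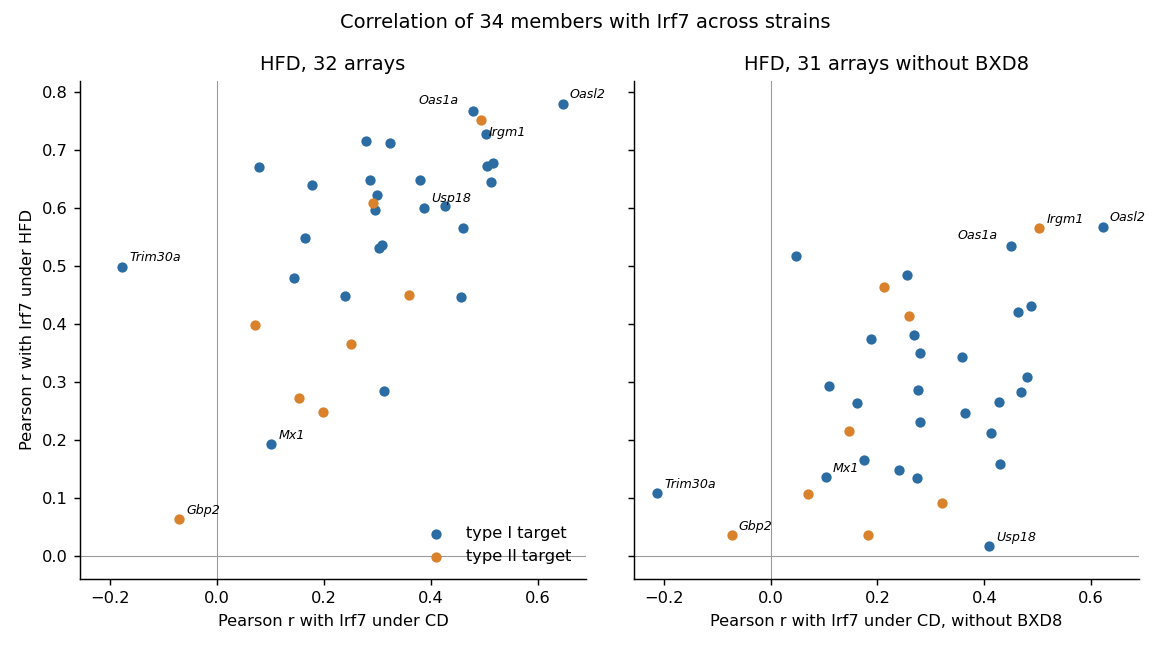
Pearson r of 34 members with Irf7 across strains under CD (x axis) and HFD (y axis), with all strains on the left and without BXD8 on the right, type I targets in blue and type II in orange. The points drop along the y axis once BXD8 is left out, from a median of 0.60 to 0.27, and Oasl2, Irgm1 and Oas1a stay high on both axes.

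Over the whole array, the genes with the highest r with Irf7 under CD came from outside the interferon lists: Rab20 (0.67), Gcnt3 (0.66), Nags (0.65), Adtrp (0.65) and Pparg (0.65), each with an adjusted P of 0.236. Oasl2 was the sixth. Rab20 is a small GTPase of vesicle traffic, Gcnt3 builds mucin glycans, Nags serves the urea cycle and Pparg is a nuclear receptor for fatty acids. Under HFD the first 5 were Oasl2, Oas1a, Irgm1, Lgals3bp (0.73) and Oas3 (0.73), and without BXD8 they were Ces1f (0.72), Rnf20 (0.67), Tmc5 (0.67), Ramp2 (0.67) and Lrrc75a (0.66). Over the 8 marker lists in both diets (16 relations), the mean of the smooth muscle markers went against Irf7 under HFD (r = -0.56, permutation P = 0.00086, adjusted P = 0.0138). Its rho was -0.44 (adjusted P = 0.0788), and r was -0.40 without BXD8 and -0.34 without BXD34 and BXD8. The part of tissue makeup in the covariation with Irf7 was not tested.

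The diet differences of the members were also correlated with that of Irf7 across strains, a relation looked at after the values had been seen. The median r over 34 members was 0.36 (0.43 for type I and 0.11 for type II targets), against -0.01 over all genes, and 0.25 without BXD8. At an unadjusted P under 0.05 there were 18 members (7.63% of all genes). Oas3 (0.68) and Oasl2 (0.66) were highest, with 0.58 and 0.56 without BXD8, and 0 members passed (0% of all genes, and 0.00513% with 10000000 resamples). Leaving out BXD8 and BXD90, the 2 strains farthest from the median Irf7 difference, r was 0.47 for Oas3 and 0.42 for Oasl2. BXD90 carries a doubted label, and this relation was not computed without the other strains of doubted label. Without BXD8, 0.0667% of all genes passed with a positive r and 0.0103% with a negative one, none of them a member. The highest were Mapre3 (0.78), Slc35e3 (0.77) and Nags (0.76), each with an adjusted P of 0.0325.

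A tighter group lay inside the type II targets. Under CD the 6 pairs among Gbp2, Gbp7, Igtp and Iigp1 had a median r of 0.77 (0.67 to 0.84), against 0.39 over the 28 pairs of type II targets, 0.30 over the 351 pairs of type I targets and 0.28 between the classes. Irf7 had a median r of 0.11 with these 4 genes. Under HFD the 6 pairs had a median r of 0.47, and type I pairs one of 0.56, or 0.21 without BXD8. These are descriptions, since the 4 genes were picked for their values.

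Over the whole array, the genes most like Iigp1 under CD were Igtp (r = 0.83, rho = 0.66), Tgtp2 (0.83 and 0.70), Gbp2 (0.82 and 0.73) and Gm4841 (0.78 and 0.55). Iigp1 was chosen as a reference after its values were seen, so these are given with no test. Tgtp2, whose name stands for T cell-specific GTPase, is of the same family. Without the 2 arrays farthest from the Iigp1 median, r was 0.69 with Igtp and 0.70 with Gbp2. Under HFD the highest were Cxcl9, a chemokine induced by interferon gamma (r = 0.80, rho = 0.69), and Tgtp2 (0.76 and 0.61), with Igtp at 0.63.

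Levels under CD and HFD were then compared across strains. Over the 32 strains the CD level correlated with the HFD level past an adjusted P of 0.05 for 2 of 35 members, against 2.61% of all genes with a positive and 0.0256% with a negative correlation. Ifih1 (r = 0.62, rho = 0.62, adjusted P = 0.0154) ranged from 9.80 (BXD81) over 11.36 to 12.17 (BXD79) under CD and from 9.71 (BXD11) over 10.83 to 12.49 (BXD8) under HFD. Irf9 (r = 0.59, rho = 0.57, adjusted P = 0.0207) was lowest in BXD11 in both diets, at 6.32 and 5.93, and reached 7.80 (BXD48a) under CD and 8.56 (BXD8) under HFD. Without BXD8 both still passed (r = 0.61 and 0.57) and Xaf1, a partner of the apoptosis inhibitor XIAP, passed too (r = 0.58, adjusted P = 0.0388).

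The other 33 members did not pass. An r above 0 was found in 29 of 35 members, and 12 had an unadjusted P under 0.05, against 16.4% of all genes. Oasl1 had the third highest r (0.52, adjusted P = 0.121) and fell to 0.22 without BXD8. Irf7 stood at 0.43 (adjusted P = 0.182). The lowest values were those of Iigp1 (-0.17), Gbp7 (-0.08) and Mx2 (-0.07). The median was 0.27 over the members, 0.30 for type I and 0.12 for type II targets, against 0.14 over all genes.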

How the data were processed

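Colon RNA of 32 strains on 2 diets was hybridised to Clariom S arrays, 1 array for each strain and diet (n = 32 a diet). Per the deposited table, values are log2 intensities. The authors' methods name Affymetrix Power Tools (RMA with GC correction), omission of polymorphic probes and a median over probesets. Whether the deposited values include the last 2 steps is not given in the sources used here. Of 22199 probesets, 19570 had 1 gene symbol and 2629 none, giving 19503 genes. A gene with several probesets took their median. The array number limits the precision.

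HFD was compared with CD over all genes with limma 3.58.1 (R 4.3.3) and Benjamini-Hochberg adjustment at 0.05. Correlations across strains used two-sided permutation tests with 100000 resamples, adjusted over all genes (Python 3.11.15, numpy 2.4.6), and an added run of 10000000. The tests were checked on simulated data. Alternatives were other scalings, the mean over probesets, a trended and robust fit, the upper 60% of genes, Spearman correlation, strain as a replicate block, and leaving out each strain, the arrays that stand apart, the parental strains, 5 strains of doubted label, and 4 arrays rich in the Paneth cell gene Defa24. Strain pairs the arrays by design: deviations of same-strain arrays correlated above 0.1 in 22 of 32 strains (median 0.21, against -0.01 between strains).

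The members, gene lists and tests were chosen with earlier results of these data known. Values are given in full for Irf7, for members that passed with or without the block, and for the 3 at each end of each correlation and the 3 with the widest range. Outside the members, listed pathway genes that passed and the 5 genes most like Irf7 in each diet are named.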

Additional observations from a re-analysis of the deposited data

How the results depend on the processing

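Across 44 alternatives to the diet comparison, Irf7, Irgm1, Lgals3bp and Mavs kept their direction and their call. The number of members that passed as lower on HFD was 3, and it was 5 with strain as a replicate block and 9 (1.87% of all genes) with the block and without BXD8, an alternative chosen after seeing the data. Leaving out 1 strain at a time gave 2 to 4 members as lower and 0 as higher, and an Irf7 difference from -1.46 to -1.30. Oas1a lost its call in 29 of the 44 alternatives, among them quantile normalisation (adjusted P = 0.0505), a trended and robust fit (0.0518) and leaving out the 4 Defa24-rich arrays (0.108). Irf3 lost its call in 24 and Eif2ak2 in 8, and Dhx58 gained one in 12. The cause was not tested. Irf7 and the 8 other genes recomputed in this way kept their sign throughout. Of the remaining members, Bst2 and Ifit3 changed sign without BXD8 (-0.02 each). The block, with strain as the pairing, changed the call of Dhx58 and Oasl1 (adjusted P = 0.0251 and 0.0416) and, among the markers, of Car4 and Alpi. Without BXD8 it changed that of Irf9, Oasl1, Oasl2, Ifi35 and Xaf1. The number of members whose CD and HFD levels correlated across strains was 2, and 0 without the Defa24-rich arrays, where fewer strains entered. For correlation with Irf7, 0 members passed in each alternative run. With 1 pooled array for each strain and diet, the spread between mice cannot be read. In mean level, 5 members (Oas2, Oas3, Oasl1, Ifi27l2a and Trim30a) lay below the lower quartile of all gene values.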
